A study of Mus musculus with 22 samples.

Results

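The ear libraries labelled Socs3 cKO of 8 weeks were compared with those of 2 weeks. They were chosen by their titles, 4 libraries at each age and 8 of the 22 in the series, and every gene in the files was read as log2(FPKM + 1). FPKM counts fragments relative to the length of the transcript and to all mapped fragments of the library. The mice had the C57BL/6 background and were labelled with a conditional knockout of Socs3 restricted to cells that express keratin 5, which are mainly basal cells of the epidermis, hair follicle and sebaceous gland. All 8 libraries carry that label, so the comparison is between ages within one labelled genotype. RNA was taken from whole ear specimens, although the source is also named as keratinocytes. The 4 libraries of the same label at 10 weeks entered the model only to estimate the spread, and the 10 libraries labelled WT (4 at 2 weeks, 3 at 8 weeks and 3 at 10 weeks) were not part of the comparison. Nothing in the labels states that the libraries of an age come from different animals, and p-values therefore describe the spread between libraries, which may be technical.

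SOCS3 binds the receptors of the IL-6 family and the JAK kinases on them and thereby limits signalling through STAT3. Without it in keratinocytes that signal lasts longer, and keratinocytes respond to such cytokines with defence proteins, chemokines and altered differentiation. Between 2 and 8 weeks the ear of a mouse also matures: the first hair coat is completed and follicles enter rest, muscle replaces its developmental myosins by adult ones, and growth-related imprinted genes are turned down.

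The 8 libraries held the tissues of a whole ear. Krt5, the keratin whose promoter defines the knockout, was at 838 to 2735 FPKM at 2 weeks and at 1633 to 3100 FPKM at 8 weeks, with overlapping ranges. Summed FPKM over 28 adult skeletal muscle genes was 3001 to 5715 at 2 weeks and 1101 to 4637 at 8 weeks, and over 21 cartilage genes it was 454 to 942 and 379 to 1059. The sum over 15 B and plasma cell genes was at most 5.74 FPKM. Replicate 1 had the lowest median FPKM of the tested genes at each age (6.11 and 7.08, against 8.76 to 10.4 in the other 6 libraries) and the highest share of FPKM in ribosomal protein genes (28.8% and 27.1%, against 16.2% to 23.8%). The Y chromosome gene Eif2s3y was above 10 FPKM in replicates 1 and 2 of each age and in neither replicate 3 nor 4. Reads per library are unknown. Relative depth was read from the most common ratio of low FPKM values (0.001 to 0.05) between 2 week replicate 1 and each other library. It put the deepest of the 8 libraries at 1.56 times the depth of the shallowest. This takes such values to rest on equal numbers of reads, which was not checked. Of 1203 olfactory and vomeronasal receptor genes, which skin hardly uses, 4.07% to 5.99% were above 0 in the 8 libraries and 35% to 74.2% in the WT libraries of 8 and 10 weeks, so WT values of those ages are given for orientation, without a test.

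Socs3 itself did not differ between the ages beyond its spread. It was at 1.25, 9.32, 12.6 and 3.51 FPKM in replicates 1 to 4 at 2 weeks and at 1.6, 5.3, 8.47 and 6.84 FPKM at 8 weeks. Replicate 1 was the lowest library at each age, and the ages overlapped. The difference was −0.06 on the log2(FPKM + 1) scale (SE 0.53, limma adjusted p = 0.983), and an exact two-sided permutation test over the 8 libraries gave p = 0.943, where the smallest p that 4 against 4 allows is 0.0286. The sign of so small a difference was not fixed: it was 0.19, 0.33 and 0.34 without 2 week replicate 2, 2 week replicate 3 or 8 week replicate 1. At 10 weeks the libraries of the same label held 29.8 to 47.7 FPKM. Against WT the gene does not follow the label at 8 weeks, where the 3 WT libraries held 0.604 to 1.36 FPKM. Those WT libraries stand apart (median FPKM of tested genes 2.69 to 5.33), and a whole ear also holds cells outside the knockout. The values therefore do not test the label, and the groups are called libraries labelled cKO throughout.

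The other members of the JAK-STAT3 feedback list did not pass the test either. Of 9 genes tested 0 were called, with a median difference of 0.34, where the median over all genes tested was 0.07. Socs1, a related inhibitor, had the largest difference of that list, from 0.528, 2.91, 6.56 and 4.39 FPKM at 2 weeks to 2.28, 9.21, 6.96 and 7.93 FPKM at 8 weeks. Its lowest libraries were again both replicates 1. The difference was 0.82 (SE 0.48, limma adjusted p = 0.582). Among 30 tested genes of IL-6 family ligands, receptors and STAT3 targets 0 were called, with a median of 0.22. Stat3 was at 10.4 to 40.5 FPKM at 2 weeks and at 19.2 to 46.7 FPKM at 8 weeks.

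Few genes passed the test across the whole transcriptome. Of 21110 genes in each file, 12936 reached 1 FPKM in at least 4 of the 8 libraries and were tested, and the other 8174 were not. A gene is called where the Benjamini-Hochberg adjusted p of limma, over all genes tested, is under 0.05. That held for 50 genes (0.387%), 14 higher (0.108%) and 36 lower (0.278%) at 8 weeks. In all 50 the 4 libraries of one age lay beyond the 4 of the other, a pattern shown by 2.44% of tested genes upward and 3.27% downward. A second fit took the replicate number as a block, so that replicate 1 was set against replicate 1, on the 8 compared libraries alone. In it 723 genes passed (5.59%), 466 higher (3.60%) and 257 lower (1.99%), and all 50 were among them. The same 8 libraries without the block gave 10, so the 2 fits differ in their libraries as well as in the block. The block is printed because same-numbered libraries deviated together in replicates 1, 2 and 3, which is a feature of the values and not of the labels. In replicate 4 this was weak (r = 0.15), and its 8 week library deviated more with another 2 week number (r = 0.512). Counts moved with single libraries: 12 genes passed without 2 week replicate 3, 14 without 8 week replicate 4, 20 without 2 week replicate 2, 26 without 2 week replicate 4, 29 without 8 week replicate 2 or without 10 week replicate 2, and 30 without 2 week replicate 1. Called in each of the 12 fits that left out 1 library were 12 genes: Hdc, Btc, Slc38a4, Clec12b, Il22ra2, Kcne1l, Krt84, Tsc22d3, Pla2g3, Casq2, Cfb and Ifi27l2a. None of the 50 changed sign in any of these 12 fits. With the spread taken from only the 8 compared libraries 10 genes passed, 8 of them among the 50, namely Hdc, Btc, Slc38a4, Clec12b, Il22ra2, Kcne1l, Cfb and Psmb9.

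**Figure D1:**
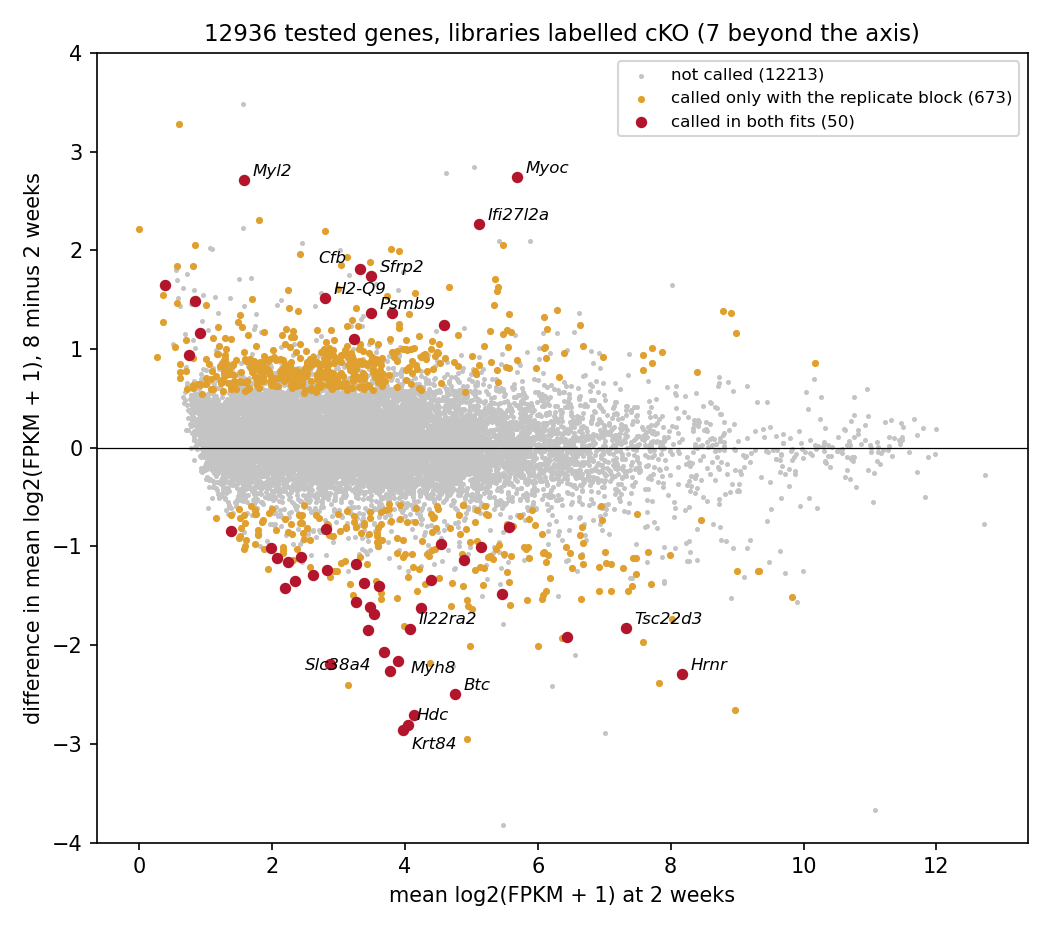
Difference in mean log2(FPKM + 1) between 8 and 2 weeks (vertical axis) against the mean at 2 weeks (horizontal axis) for 12936 tested genes of the libraries labelled cKO, with 7 genes beyond the axis limit of 4. Red points are the 50 genes called in both fits, orange points the 673 called only with the replicate block, and red points lie mostly below 0.

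The largest falls and rises covered several tissues. The 15 largest falls by the rule for named genes were those of Krt84, Hdc, Kcne1l, Btc, Hrnr, Casq2, Clec12b, Myh8, Slc38a4, Klk10, Agtr2, Il22ra2, Tsc22d3, Tmem182 and Fmo2. Only 12 rises qualified beside unnamed gene models: Myoc, Myl2, Ifi27l2a, Cfb, Sfrp2, Myl3, H2-Q9, Lhpp, Psmb9, Cyp2f2, Sectm1a and Vstm2a. No small RNA gene was called among 77 tested, although 9 passed with the block.

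The promoters of the called genes were searched for the core of the STAT binding site, TTCNNNGAA, on both strands. RefSeq promoter windows of the GRCm38.p6 build, 250 bases before to 50 after a gene's start, were matched by symbol for 40 of the 50 called genes. Not matched, and so not searched, were the rises Cfb, H2-Q9, Ifi27l2a, Lhpp and Sectm1a and the falls Arhgap24, Il22ra2, Murc, Pglyrp3 and Pla2g3. The motif was in 3 of the 40 matched genes (7.5%), all of them genes that fell, against 754 of 9130 matched genes tested (8.26%) and 2582 of all 27025 genes of the table (9.55%). The windows of those 3 genes are printed because they hold the motif, in capitals, and that of Hdc because its fall had the smallest adjusted p of all genes. Fmo2 has 2 windows and Tsc22d3 has 3, and for each the first that holds the motif is printed. The window of Fmo2 lies at chr1:162898444-162898743 on the minus strand, that of Klk10 at chr7:43780804-43781103 on the plus strand, that of Tsc22d3 at chrX:140548522-140548821 on the minus strand and that of Hdc at chr2:126618629-126618928 on the minus strand.
Fmo2: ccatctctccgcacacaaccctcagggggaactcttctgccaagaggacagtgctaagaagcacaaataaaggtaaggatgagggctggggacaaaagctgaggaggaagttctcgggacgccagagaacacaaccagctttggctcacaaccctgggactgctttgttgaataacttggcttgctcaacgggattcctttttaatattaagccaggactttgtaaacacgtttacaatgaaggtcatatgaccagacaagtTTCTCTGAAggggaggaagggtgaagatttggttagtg
Klk10: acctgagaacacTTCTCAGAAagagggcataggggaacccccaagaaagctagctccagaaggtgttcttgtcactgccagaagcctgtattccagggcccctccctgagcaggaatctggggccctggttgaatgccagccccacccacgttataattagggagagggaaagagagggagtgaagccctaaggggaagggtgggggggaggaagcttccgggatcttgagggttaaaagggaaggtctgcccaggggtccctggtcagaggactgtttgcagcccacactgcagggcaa
Tsc22d3: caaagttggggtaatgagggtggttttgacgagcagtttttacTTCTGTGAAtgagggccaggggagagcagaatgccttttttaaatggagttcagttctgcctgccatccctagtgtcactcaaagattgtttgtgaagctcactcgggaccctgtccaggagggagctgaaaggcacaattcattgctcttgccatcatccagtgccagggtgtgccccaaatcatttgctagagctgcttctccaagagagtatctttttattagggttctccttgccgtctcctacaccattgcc
Hdc: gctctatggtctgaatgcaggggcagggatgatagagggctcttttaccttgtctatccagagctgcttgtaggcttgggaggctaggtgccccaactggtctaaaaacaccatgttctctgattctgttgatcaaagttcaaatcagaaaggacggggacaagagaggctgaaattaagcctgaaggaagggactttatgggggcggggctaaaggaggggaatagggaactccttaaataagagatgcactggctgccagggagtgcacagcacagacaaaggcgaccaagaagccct
A match is only a match of letters, and its absence from the Hdc window says nothing about any factor.

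Mast cell genes were mostly lower by values at 8 weeks, and few passed the test. Of 19 mast cell and basophil genes in the files 15 were tested, 2 were called lower and 0 higher, and 8 were lower with the block. The median difference was −1.31, with 13 of 15 below 0, against a median of 0.07 and 41.7% of genes below 0 over all tested. Of all genes tested 0.278% were called lower and 1.99% were lower with the block. Summed FPKM over the list was 607 to 1177 at 2 weeks and 107 to 409 at 8 weeks. In whole tissue, fewer mast cells and less RNA per mast cell cannot be told apart, and the same holds for every cell type below.

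Hdc, which makes histamine from histidine, was at 17.3, 14.3, 15.6 and 14.8 FPKM in replicates 1 to 4 at 2 weeks and at 1.13, 1.57, 1.52 and 1.24 FPKM at 8 weeks. The libraries of each age lay close together and far from the other age. It fell by 2.80 (SE 0.15, limma adjusted p = 4.11e-06). At 10 weeks Hdc was back at 11.8 to 16.1 FPKM. In WT ears it was 8.04 to 10.9 FPKM at 2 weeks and 2.5 to 3.24 FPKM at 8 weeks. Mrgprb1, a receptor of the Mas-related family found on mast cells, was at 13.7, 8.51, 7.33 and 6.3 FPKM and then at 3.41, 1.99, 2.66 and 1.3 FPKM. All 8 week libraries were below all those of 2 weeks. It fell by 1.57 (SE 0.26, limma adjusted p = 0.0276), and the call ended without 2 week replicate 2 or 3 or 8 week replicate 2 or 4 (adjusted p = 0.0657 to 0.0851) and with scaling (0.0681).

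The mast cell proteases had larger levels and wider spread. Cpa3, carboxypeptidase A of the granules, was at 420, 143, 232 and 182 FPKM at 2 weeks and at 96.4, 22.6, 89.9 and 15.9 FPKM at 8 weeks. The groups did not overlap, and 8 week replicates 2 and 4 were the lowest. The difference was −2.38 (SE 0.56, limma adjusted p = 0.107, and 0.0141 with the block). The chymase Cma1 went from 133 to 366 FPKM to 19.3 to 95 FPKM (−1.97, limma adjusted p = 0.131, and 0.0173 with the block). Mcpt4 went from 212 to 313 FPKM to 31.7 to 160 FPKM (−1.73, limma adjusted p = 0.102, and 0.0317 with the block). Mrgprb2, Tpsb2 and Ms4a2, the last a chain of the IgE receptor, also passed only with the block, with differences of −1.50, −1.45 and −1.31. These genes were picked for naming after their values were seen. Kit, which mast cells share with melanocytes, had a difference of −0.36, and the transcription factor Gata2 one of 0.09. Neither was called in either fit. Fcer1a, another chain of the IgE receptor, was below the filter, at 0.147 to 0.29 FPKM at 2 weeks and at 0.274 to 3.4 FPKM at 8 weeks, so its values did not go down with the proteases.

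**Figure D2:**
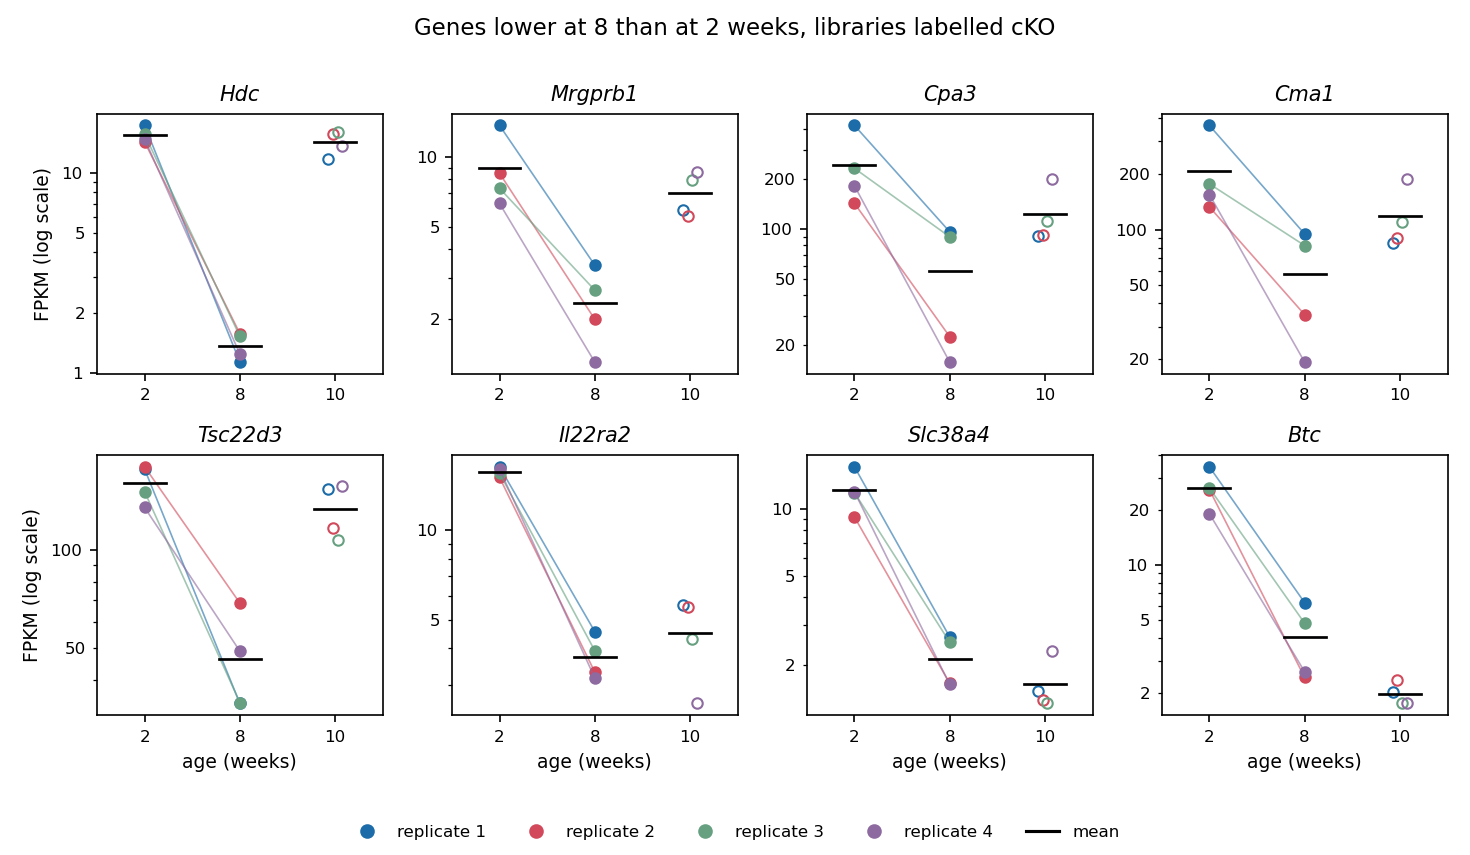
FPKM on a log axis for 8 genes with lower levels at 8 weeks, by age in weeks, in the libraries labelled cKO. Points are libraries coloured by replicate number, lines join the same number at 2 and 8 weeks, open points are 10 week libraries and bars are means. Hdc, Mrgprb1 and Tsc22d3 at 10 weeks stand above all 8 week libraries, while Slc38a4 and Btc stay low.

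A second group of falls was of regulators and enzymes. Tsc22d3, a transcriptional regulator induced by glucocorticoids, was at 177, 180, 151 and 135 FPKM at 2 weeks and at 33.8, 68.7, 34 and 48.9 FPKM at 8 weeks. No library of 8 weeks came near those of 2 weeks. It fell by 1.82 (SE 0.24, limma adjusted p = 0.00667) and at 10 weeks was at 107 to 157 FPKM. Cyp11a1, the first enzyme of steroid hormone synthesis, and Slc10a6, a carrier of sulfated steroids, were called lower too. Cyp11a1 was at 8.08 to 14.2 FPKM, then 2.29 to 5.33 FPKM, and at 10 weeks 10.4 to 13.7 FPKM. Slc10a6 was at 7.82 to 11 FPKM, then 1.93 to 4.63 FPKM, and at 10 weeks 9.4 to 12.3 FPKM. Their differences were −1.40 and −1.37 (limma adjusted p = 0.0267 and 0.0154). The call on Cyp11a1 ended without 2 week replicate 2, 3 or 4 or 8 week replicate 1 or 4 (0.0502 to 0.0966), and that on Slc10a6 without 2 week replicate 2 or 3 or 8 week replicate 4 (0.0504 to 0.076). These last 2 lie outside the rule for named genes and were chosen after their values were seen, for their course at 10 weeks.

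The course at 10 weeks divided the 36 lower genes. In 31 of them every 10 week library was below every 2 week library. In the other 5, namely Hdc, Mrgprb1, Tsc22d3, Cyp11a1 and Slc10a6, every 10 week library was above every 8 week library and the 10 week libraries were not all below those of 2 weeks. Klk10 met both conditions, with 72.3 to 96.1 FPKM at 2 weeks, 10.7 to 34.2 FPKM at 8 weeks and 37.8 to 67.3 FPKM at 10 weeks. All 14 higher genes had every 10 week library above every 2 week library. These counts describe genes picked for their difference between 8 and 2 weeks, so the 2 week libraries set against 10 weeks had served to pick them. The matching shares over all genes tested were not computed, so the counts do not show that the called genes stand out. The difference between 10 and 8 weeks was not tested.

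Signalling genes that fell and were low at 10 weeks included a growth factor and a cytokine decoy. Btc, betacellulin, a ligand of the epidermal growth factor receptor, was at 34.5, 25.9, 26.4 and 19.1 FPKM at 2 weeks and at 6.23, 2.43, 4.81 and 2.61 FPKM at 8 weeks. The ages were well apart. It fell by 2.50 (SE 0.26, limma adjusted p = 0.00179). Il22ra2, the secreted receptor that captures IL-22, was at 16.4, 15.1, 15.6 and 16.1 FPKM and then at 4.56, 3.33, 3.93 and 3.18 FPKM. The 2 week libraries were almost equal. It fell by 1.83 (SE 0.20, limma adjusted p = 0.00224), the 1 call among 11 tested genes of IL-17, IL-20 and IL-22 signalling, whose median was 0.09. At 10 weeks Il22ra2 was at 2.61 to 5.62 FPKM, and WT ears of 2 weeks held 2.44 to 3.41 FPKM. Il20ra, a receptor chain for IL-20, was higher with the block (0.90, limma adjusted p = 0.257, and 0.0469 with the block). Clec12b, an inhibitory lectin receptor, went from 4.04 to 8.91 FPKM to 0.239 to 1.08 FPKM (−2.18, SE 0.24, limma adjusted p = 0.00224). Agtr2, the type 2 angiotensin receptor, went from 6.33 to 18.6 FPKM to 1.33 to 2.51 FPKM (−1.85, SE 0.30, limma adjusted p = 0.0265), a call that ended without 2 week replicate 3 or 8 week replicate 2 or 4 (adjusted p = 0.0581 to 0.0955) and with median-of-ratios scaling (0.0527).

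Imprinted and juvenile growth genes had 21 of 34 members tested, with 1 called lower and a median of −0.43. That gene was Slc38a4, an imprinted amino acid transporter, at 15.4, 9.17, 11.8 and 11.9 FPKM at 2 weeks and at 2.66, 1.65, 2.52 and 1.63 FPKM at 8 weeks. Every library of 8 weeks was far below those of 2 weeks. It fell by 2.06 (SE 0.20, limma adjusted p = 0.00128). With the block 3 were lower and 2 higher, against 1.99% and 3.60% of all genes tested. H19, a long noncoding RNA of growing tissue, went from 50 to 130 FPKM to 10.4 to 40.2 FPKM (−1.92, limma adjusted p = 0.251, and 0.0392 with the block). Nnat, a small membrane protein, was 1 of the 2 that were higher with the block. Igf2, the fetal growth factor next to H19, was not called in either fit (−0.73, adjusted p = 0.564).

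Developmental muscle genes were lower by values at 8 weeks, and few passed the test. Of 13 developmental muscle genes 7 were tested, 2 were called lower, 0 higher, 4 were lower with the block, and all 7 differences were below 0 (median −1.05). Over all genes tested 0.278% were called lower, 1.99% were lower with the block and 41.7% were below 0. Myh8, the perinatal myosin heavy chain, was at 15.8, 13.5, 18 and 9.39 FPKM at 2 weeks and at 3.67, 4.26, 1.15 and 1.31 FPKM at 8 weeks. No library of one age reached the other. It fell by 2.16 (SE 0.31, limma adjusted p = 0.0151), a call that ended without 2 week replicate 3 (0.0692) or 8 week replicate 4 (0.0516). Chrna1, a subunit of the acetylcholine receptor of muscle, was at 2.65 to 5.15 FPKM and then at 0.74 to 1.86 FPKM. It fell by 1.16 (SE 0.20, limma adjusted p = 0.0307), but the call held in only 3 of 12 fits that left out 1 library, namely those without 2 week replicate 2, 8 week replicate 2 or 10 week replicate 4, with adjusted p of 0.0514 to 0.128 in the others, and was lost with scaling (0.0527). Myh3, the embryonic myosin heavy chain, was at 9.26 to 15 FPKM and then at 1.77 to 8.25 FPKM (−1.53, adjusted p = 0.148, and 0.0431 with the block), with replicate 2 the highest library of 8 weeks.

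Other called falls, in no list tested here, included genes known from muscle. Casq2, a calcium-binding protein of the sarcoplasmic reticulum in heart and slow muscle, was at 17.3, 8.19, 20.8 and 8.55 FPKM and then at 3.19, 2.1, 1.52 and 0.997 FPKM. The ages did not overlap. It fell by 2.27 (SE 0.31, limma adjusted p = 0.00947). Tmem182 went from 7.18 to 12.9 FPKM to 1.46 to 4.45 FPKM (−1.68, SE 0.29, limma adjusted p = 0.0307). Its call ended without 2 week replicate 1, 3 or 4, 8 week replicate 3 or 4 or 10 week replicate 2 (0.0571 to 0.122), with scaling (0.0551) and with a pseudocount of 0.1 (0.0509). Cav3, the caveolin of muscle, and Murc, its partner in the muscle caveola, were also called lower (−1.62 and −1.24, limma adjusted p = 0.0307 and 0.0366). They were chosen after their values were seen, and held in 3 and 1 of the 12 fits: Cav3 in those without 8 week replicate 1 or 10 week replicate 3 or 4 (0.0523 to 0.128 in the others), Murc in that without 8 week replicate 1 (0.0504 to 0.132).

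The light chains Myl2 and Myl3 went the other way, unlike Casq2, which is also a gene of slow muscle. Myl2, the regulatory light chain of slow and cardiac myosin, was at 1.25, 0.563, 3.19 and 4.31 FPKM at 2 weeks and at 12.5, 20.2, 22.2 and 21 FPKM at 8 weeks. Every 8 week library was above every 2 week library. It rose by 2.72 (SE 0.47, limma adjusted p = 0.0307), and the call ended without any of 7 libraries, namely 2 week replicates 1, 2 and 3, 8 week replicates 2, 3 and 4 and 10 week replicate 2 (0.0571 to 0.0982). Myl3, the essential light chain of the same myosins, went from 0.0858 to 0.627 FPKM to 2.01 to 4.29 FPKM (1.65, SE 0.29, limma adjusted p = 0.0347). Its call held in 3 of 12 such fits, those without 10 week replicate 1, 3 or 4, was at 0.0571 to 0.132 in the others, and was lost with no filter (0.0501). Mb, myoglobin, the oxygen carrier of muscle, was at 31.1, 26.2, 45.3 and 68.1 FPKM and then at 205, 180, 104 and 79.8 FPKM (1.70, adjusted p = 0.0696, and 0.0496 with the block). Its 8 week libraries were all higher, least so replicate 4. The slow troponin genes Tnnt1, Tnnc1 and Tnni1 belong to the adult muscle list, in which 26 of 28 members were below 0. That list also holds fast muscle genes, so its count does not tell how slow muscle genes behaved. A rise of slow muscle genes as a group was neither tested nor shown.

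Adult muscle genes as a list were lower by values, with 26 of 28 below 0 and a median of −0.99, and 0 were called. With the block 4 were lower and 1, Mb, higher. Over all genes tested 41.7% were below 0, and with the block 1.99% were lower and 3.60% higher. Myh1, a fast myosin heavy chain, went from 78.2 to 131 FPKM to 21.7 to 61.3 FPKM (−1.53, limma adjusted p = 0.0696, and 0.0237 with the block), without overlap. The sum over the list was 4637 and 3004 FPKM in 8 week replicates 1 and 2 and 1101 and 1103 FPKM in replicates 3 and 4, so the amount of muscle RNA differed between libraries of one age. Its part in the results on muscle genes was not tested. The plot of muscle genes shows opposite courses of Myh8 and Myl2. In each of these genes the ages did not overlap, so all 4 replicate numbers had to go the same way.

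**Figure D3:**
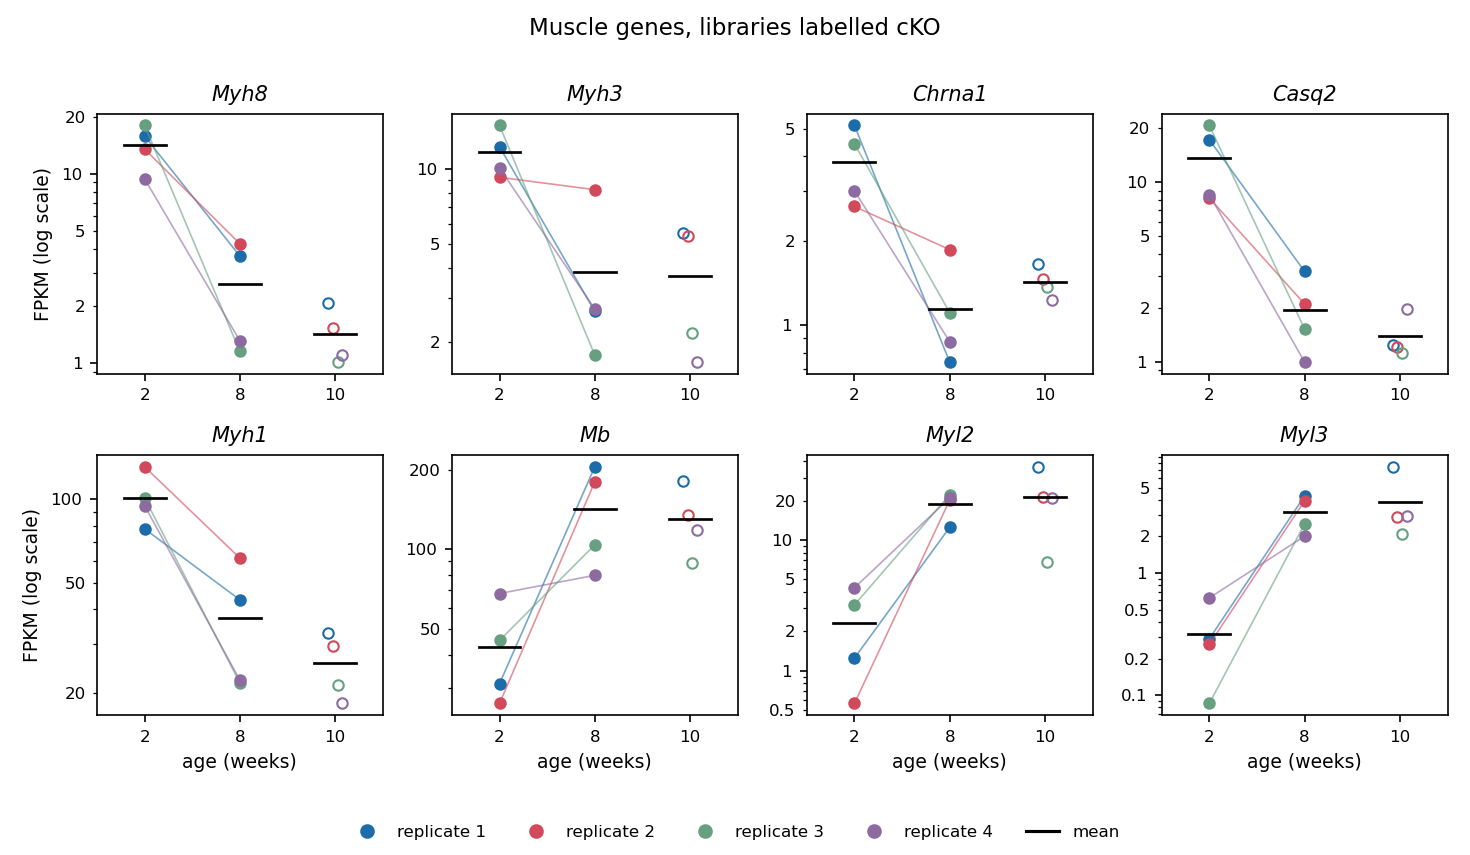
FPKM on a log axis for 8 muscle genes by age in weeks in the libraries labelled cKO. Points are libraries coloured by replicate number, lines join the same number at 2 and 8 weeks, open points are 10 week libraries and bars are means. Myh8, Myh3, Chrna1, Casq2 and Myh1 are lower at 8 weeks, and Mb, Myl2 and Myl3 are higher.

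Genes of the outer epidermis were mostly lower by values at 8 weeks, with few calls. Of 24 spinous and granular genes 22 were below 0 (median −0.79), 1 was called lower and 6 were lower with the block. Over all genes tested 41.7% were below 0, 0.278% were called lower and 1.99% were lower with the block. Hrnr, hornerin, a filaggrin-like protein of the cornified layer, was at 262, 293, 313 and 282 FPKM at 2 weeks and at 78.4, 29.6, 125 and 37.6 FPKM at 8 weeks. Replicates 2 and 4 were the lowest at 8 weeks, and the ages did not overlap. It fell by 2.30 (SE 0.37, limma adjusted p = 0.0265), a call that ended without 2 week replicate 2, 3 or 4 or 8 week replicate 4 (0.0631 to 0.0955). Flg2, a second protein of that family, went from 155 to 171 FPKM to 35.7 to 103 FPKM (−1.45, adjusted p = 0.0593, and 0.0336 with the block). Rptn and the protease Asprv1, which processes filaggrin, passed only with the block (−1.81 and −1.51). Krt10, the main keratin of spinous cells, was not called in either fit, with a difference of 0.00 (SE 0.64), wide overlap and its lowest value, 432 FPKM, in 2 week replicate 1.

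The same direction was seen in the cornified envelope and in lipid enzymes. For comparison, 41.7% of all genes tested were below 0, 0.278% were called lower and 1.99% were lower with the block. All 18 late cornified envelope genes were below 0 (median −1.02), with 0 called and 5 lower with the block, among them Lce1c, which went from 360 to 696 FPKM to 105 to 416 FPKM with overlap (−1.25, adjusted p = 0.272, and 0.0378 with the block). This family is of similar copies whose reads could be shared. Of 28 epidermal lipid and barrier enzymes 23 were below 0 (median −0.77), with 1 called lower and 11 lower with the block. Sptlc1, a subunit of the enzyme that starts sphingolipid synthesis, was at 46.9, 42.1, 45 and 52.1 FPKM and then at 26, 24.9, 28.5 and 25.5 FPKM. Both ages were tight and apart. It fell by 0.80 (SE 0.13, limma adjusted p = 0.0276), but the call held in 4 of 12 fits that left out 1 library, those without 8 week replicate 3 or 10 week replicate 1, 3 or 4 (0.0504 to 0.0966 in the others), and was lost with scaling (0.0772) and with all 22 libraries (0.0788). Lipk, a lipase of granular cells, went from 21.6 to 37.6 FPKM to 2.97 to 15.2 FPKM (−2.01, adjusted p = 0.0599, and 0.018 with the block), and Elovl1, which elongates fatty acids, from 170 to 235 FPKM to 70.2 to 155 FPKM (−1.06, adjusted p = 0.071, and 0.0237 with the block).

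The 8 week libraries differed in how much of this signal they held. Late cornified envelope genes summed to 4875 and 5537 FPKM in 8 week replicates 1 and 3 and to 1741 and 1428 FPKM in replicates 2 and 4. Spinous and granular genes summed to 18971 and 23967 FPKM against 10386 and 10315 FPKM in the same order. The mast cell list had the same order, with 368 and 409 FPKM against 175 and 107 FPKM. Basal keratinocyte genes did not, at 6832 to 8985 FPKM at 8 weeks and 5495 to 7943 FPKM at 2 weeks, and 0 of 12 were called in either fit. The order of replicates 1 and 3 above 2 and 4 was also seen at 2 weeks in late cornified envelope genes (7567 and 7308 against 4488 and 5526 FPKM). The mast cell list at 2 weeks had it too (1177 and 870 against 607 and 730 FPKM). Spinous and granular genes at 2 weeks did not (23399 and 23114 against 20361 and 24979 FPKM). The share of FPKM in ribosomal protein genes had it at each age. It was 28.8% and 22.8% against 16.2% and 19.3% at 2 weeks, and 27.1% and 23.8% against 17.6% and 18% at 8 weeks. The part of this split in the results was not tested. Klk10, a kallikrein-related peptidase, was lowest at 8 weeks in replicate 2 and fell by 1.92 (SE 0.31, limma adjusted p = 0.0265), a call that ended without 2 week replicate 1, 2, 3 or 4 or 8 week replicate 4 (0.0581 to 0.0805).

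Other enzymes and keratins among the falls were of mixed origin. Krt84, a hard keratin of tongue, nail and hair, was at 9.02, 27.4, 18.7 and 9.61 FPKM and then at 0.839, 0.413, 2.99 and 1.05 FPKM. All 4 libraries of 8 weeks were low. It fell by 2.86 (SE 0.37, limma adjusted p = 0.00667), the largest fall of a called gene. Fmo2, a flavin monooxygenase, was at 14.2 to 23 FPKM and then at 4.08 to 7.07 FPKM. It fell by 1.63 (SE 0.26, limma adjusted p = 0.0252), a call lost without 2 week replicate 2, 3 or 4 or 8 week replicate 2 or 4 (0.0557 to 0.0955). Kcne1l, an accessory subunit of potassium channels, went from 12.5 to 24 FPKM to 0.533 to 3.15 FPKM (−2.70, SE 0.31, limma adjusted p = 0.00347). Pla2g3, a secreted phospholipase A2 chosen after its values were seen because its call held in all 12 fits without 1 library, was at 3.24, 4.37, 3.96 and 4.92 FPKM and then at 0.902, 0.722, 1.64 and 0.819 FPKM. It fell by 1.35 (SE 0.18, limma adjusted p = 0.00667).

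Hair genes were higher by values at 8 weeks. All 21 tested genes of the hair shaft and root sheath list, of 29 in the files, were above 0, with a median of 1.45 and 58.3% of all genes above 0. None was called, and 7 passed as higher with the block, as did 3.60% of all genes tested. Krt71, which the inner root sheath makes, was at 18.2, 2.69, 13.9 and 1.16 FPKM at 2 weeks and at 54.5, 5.21, 133 and 20.9 FPKM at 8 weeks. Replicates 1 and 3 were high at both ages, so the ages overlapped although each number was higher at 8 weeks (2.20, SE 1.10, limma adjusted p = 0.508, and 0.0339 with the block). Krt27 and Krt25, keratins of the same sheath, had differences of 1.96 and 1.93 with adjusted p of 0.494 and 0.496 in limma, and 0.0289 and 0.022 with the block. The list summed to 48.4 to 121 FPKM at 2 weeks and to 80 to 780 FPKM at 8 weeks. Krt84, described above, belongs to no list and went the other way.

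The called rises that belonged to a list were of complement and interferon response genes. Cfb, factor B of the alternative complement pathway, was at 5.59, 10.3, 11.6 and 9.67 FPKM at 2 weeks and at 28.9, 43, 34.2 and 31.4 FPKM at 8 weeks. The groups were far apart. It rose by 1.81 (SE 0.22, limma adjusted p = 0.00435) and was at 39.3 to 58.4 FPKM at 10 weeks. In WT ears Cfb was at 6.37 to 8.49 FPKM at 2 weeks and at 6.22 to 9.69 FPKM at 8 weeks. It was the 1 call among 23 tested complement and acute phase genes, whose median was 0.09, and 5 passed as higher with the block. Over all genes tested 0.108% were called higher and 3.60% were higher with the block. C3, the central complement protein, was at 3.72, 16.8, 10.9 and 14.1 FPKM and then at 10.5, 82.2, 28.1 and 98.2 FPKM. Replicates 2 and 4 were the highest at 8 weeks and replicate 1 the lowest at both ages (1.88, SE 0.63, adjusted p = 0.282, and 0.0173 with the block). C2 and Cfd passed only with the block, with differences of 0.77 and 1.62, as did C1ra.

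Of 34 tested interferon response genes, out of 42, 33 were above 0 with a median of 0.45, 2 were called higher and 5 were higher with the block. Over all genes tested 58.3% were above 0, 0.108% were called higher and 3.60% were higher with the block. The list summed to 201 to 212 FPKM at 2 weeks and to 379 to 507 FPKM at 8 weeks. Ifi27l2a, an interferon-induced gene, was at 39.1, 19.4, 30.4 and 54.4 FPKM and then at 241, 141, 111 and 196 FPKM. All 8 week libraries were above all those of 2 weeks. It rose by 2.27 (SE 0.30, limma adjusted p = 0.0067), and WT ears held 11.6 to 13.3 FPKM at 2 weeks and 60.3 to 114 FPKM at 8 weeks. Psmb9, a subunit of the immunoproteasome that makes peptides for MHC class I, was at 10.7, 10, 10.5 and 9.58 FPKM and then at 32.7, 26.6, 30 and 22.9 FPKM. The 2 week libraries were nearly equal. It rose by 1.36 (SE 0.25, limma adjusted p = 0.0375), a call that held in 3 of 12 fits without 1 library, those without 10 week replicate 1, 3 or 4 (0.0571 to 0.128 in the others), and that ended with scaling (0.0917). Psmb8, its partner subunit, went from 12.5 to 16.9 FPKM to 29 to 43 FPKM (1.21, adjusted p = 0.0539, and 0.00913 with the block). Usp18 and Bst2 passed only with the block (0.95 and 0.79). The antiviral genes Ifit1, Isg15 and Irf7 were not called in either fit, with differences of 0.25, 0.39 and 0.31. Isg15 was at 51.2 FPKM in 10 week replicate 3, against 3.95 to 6.22 FPKM in the other 10 week libraries and enters the spread used in its test.

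**Figure D4:**
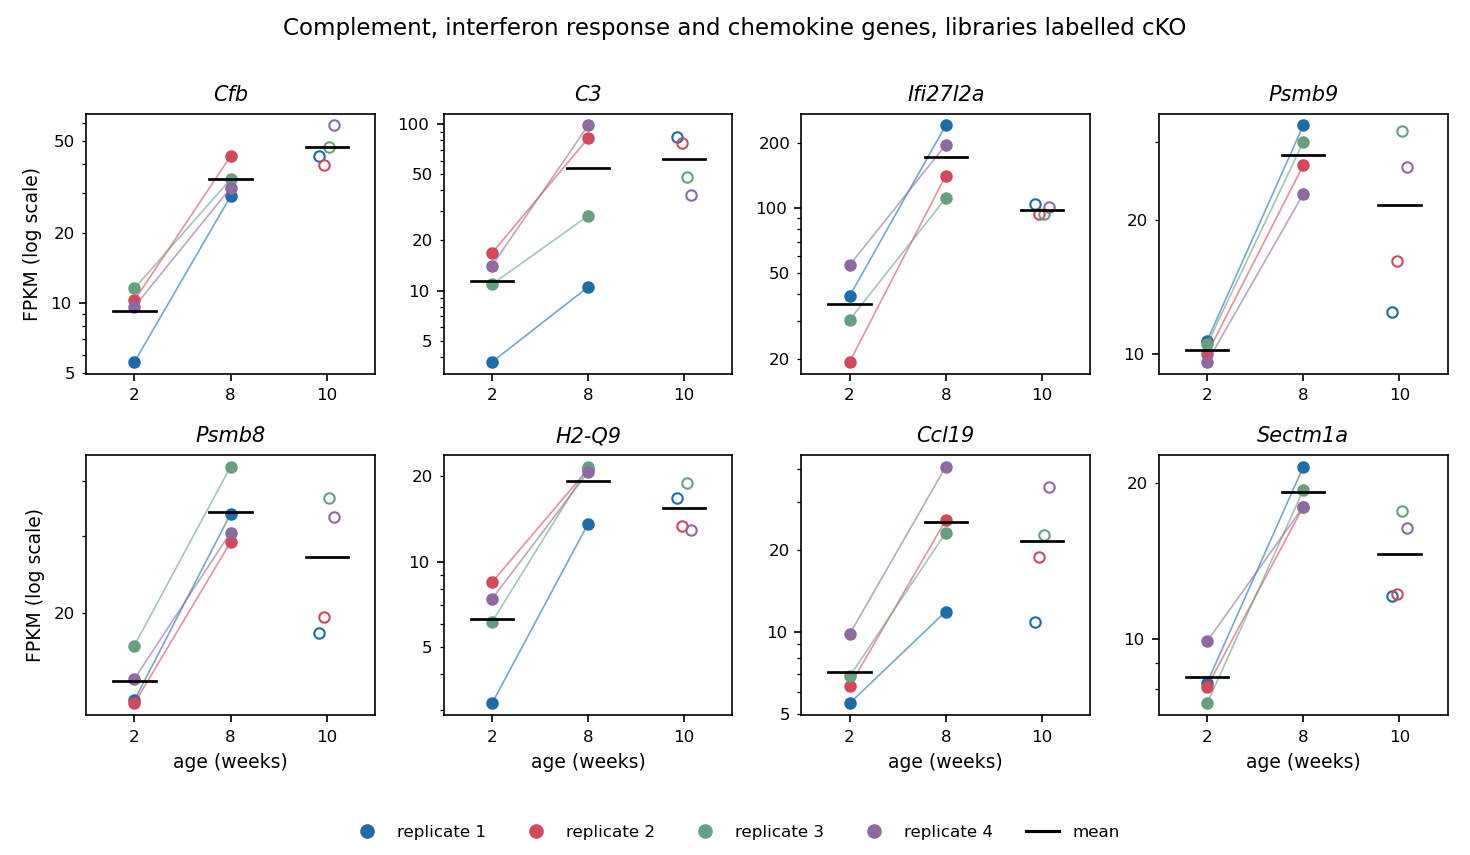
FPKM on a log axis for 8 complement, interferon response, MHC and chemokine genes by age in weeks in the libraries labelled cKO. Points are libraries coloured by replicate number, lines join the same number at 2 and 8 weeks, open points are 10 week libraries and bars are means. All 4 numbers are higher at 8 weeks in each gene, and the 2 ages overlap only in C3.

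Further defence genes rose or were higher by values. H2-Q9, an MHC class I gene with close copies that could share reads, was at 3.16, 8.45, 6.12 and 7.38 FPKM and then at 13.6, 21.2, 21.6 and 20.7 FPKM. Replicate 1 was the lowest at each age, and the ages did not overlap. It rose by 1.52 (SE 0.26, limma adjusted p = 0.0296), a call lost without 2 week replicate 3 or 4, 8 week replicate 2, 3 or 4 or 10 week replicate 2 (0.0539 to 0.1). Sectm1a was at 7.51 to 9.9 FPKM and then at 18 to 21.5 FPKM. It rose by 1.10 (SE 0.16, limma adjusted p = 0.0154), a call lost without 2 week replicate 2 or 3 or 8 week replicate 4 (0.0504 to 0.076) and with scaling (0.0587). Of 17 chemokine genes 0 were called and 5 were higher with the block, as were 3.60% of all genes tested. Ccl19, which guides dendritic and T cells, went from 5.46 to 9.81 FPKM to 11.9 to 40.6 FPKM without overlap (1.61, adjusted p = 0.0981, and 0.0106 with the block). Cxcl14, Cxcl12, Cx3cl1 and Ccl27a were the other 4 (0.82 to 1.14). Among 17 dendritic and Langerhans cell genes the antigen presentation genes Cd74 and H2-Ab1 were higher with the block (1.01 and 1.03, both with overlap), as was Fscn1, while Cd86 was lower. No T and NK cell gene of 15 was called in either fit, and the largest difference was that of Cd2 (0.70, adjusted p = 0.402).

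The largest called rise was that of Myoc, myocilin, a secreted glycoprotein. It was at 28.8, 41, 51.7 and 106 FPKM at 2 weeks and at 159, 599, 191 and 776 FPKM at 8 weeks. Replicates 2 and 4 were the highest at 8 weeks, and the ages did not overlap. It rose by 2.75 (SE 0.50, limma adjusted p = 0.0375), but held in 3 of 12 fits that left out 1 library, those without 2 week replicate 4 or 8 week replicate 1 or 3 (0.0562 to 0.13 in the others), and was lost with no filter (0.0609). In WT ears Myoc was at 12.9 to 15.7 FPKM at 2 weeks and at 143 to 284 FPKM at 8 weeks. Sfrp2, a secreted regulator of Wnt signalling made by fibroblasts, was at 7.17, 13.6, 11 and 10.2 FPKM and then at 36.7, 66.2, 20.3 and 35.7 FPKM. Replicate 3 was the lowest at 8 weeks, still above 2 weeks. It rose by 1.74 (SE 0.30, limma adjusted p = 0.0307), held in 3 of 12 such fits, those without 8 week replicate 3 or 10 week replicate 3 or 4 (0.0512 to 0.108 in the others), and in WT went from 24.6 to 29 FPKM to 4.59 to 16.3 FPKM. Whether the 2 labelled genotypes differ in their course was not tested.

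The remaining called rises of named genes were those of Lhpp, Cyp2f2 and Vstm2a. Lhpp, a phosphatase, went from 10.1 to 16.1 FPKM to 31.8 to 40.4 FPKM (1.37, SE 0.20, limma adjusted p = 0.0154). Its call ended without 2 week replicate 3 (0.0701) or 8 week replicate 4 (0.0512). Cyp2f2, a cytochrome P450, went from 15.6 to 27.4 FPKM to 47.4 to 63.2 FPKM (1.24, SE 0.22, limma adjusted p = 0.0352), and Vstm2a from 0.512 to 0.842 FPKM to 1.77 to 2.67 FPKM (0.94, SE 0.17, limma adjusted p = 0.0307). The call on Cyp2f2 held in 2 of 12 fits without 1 library, those without 10 week replicate 3 or 4, and was at 0.058 to 0.108 in the others. That on Vstm2a held in 3, those without 10 week replicate 1, 3 or 4, and was at 0.0503 to 0.13 in the others. Both ended with scaling (0.0551 and 0.0802), and that on Cyp2f2 with all 22 libraries (0.131).

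Lists of connective tissue and fat held no called gene. With the block 3.60% of all genes tested were higher and 1.99% lower. None of 25 fibroblast and collagen genes was called in either fit (median 0.21), and Eln, elastin, had the largest difference, from 201, 1544, 2561 and 1027 FPKM to 124, 479, 275 and 646 FPKM (−1.57, adjusted p = 0.487). Among 19 tested cartilage genes 0 were called, 3 were higher and 1 lower with the block. Comp, a protein of cartilage and tendon matrix, was at 0.423, 3.86, 3.16 and 4.18 FPKM and then at 5.42, 29.9, 17.9 and 22.7 FPKM (2.30, SE 0.51, adjusted p = 0.087, and 0.00116 with the block). All 8 week libraries were higher, with replicate 1 the lowest at each age. Matn3, a cartilage matrilin, was higher with the block (1.46), whereas Col9a1, of cartilage collagen IX, was lower (−1.25). Among 16 adipocyte genes 0 were called and 6 were higher with the block (median 0.77). Adipoq, adiponectin, was at 11.6, 23, 23.1 and 55.9 FPKM and then at 125, 55.8, 51.2 and 99.6 FPKM, with 2 week replicate 4 above 8 week replicates 2 and 3 (1.63, adjusted p = 0.157, and 0.0485 with the block).

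Pigment cell genes were lower by values. Of 12 tested melanocyte genes 11 were below 0 (median −0.78), with 0 called and 6 lower with the block. Over all genes tested 41.7% were below 0 and 1.99% were lower with the block. Tyrp1, a melanin synthesis enzyme, was at 109, 48.9, 57 and 32.6 FPKM and then at 22.2, 15, 25 and 14.2 FPKM. The groups did not overlap, and 2 week replicate 1 was the highest (−1.55, SE 0.37, adjusted p = 0.108, and 0.017 with the block). Dct, another enzyme of that pathway, went from 33.2 to 56.8 FPKM to 20.1 to 23.9 FPKM (−1.10, adjusted p = 0.0851, and 0.022 with the block). Mlana, Ednrb, Oca2 and Trpm1 were the other 4, and the last 3 of these were at −0.93 to −0.92.

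Inflammatory lists held few differences. With the block 3.60% of all genes tested were higher and 1.99% lower. Of 18 IL-1 and IL-36 family genes 0 were called, and with the block 4 were lower and 1 higher. Il1f6, which encodes an IL-36 cytokine of keratinocytes, was at 32.1, 19, 39.8 and 31.1 FPKM and then at 14.4, 4.53, 21.5 and 5.3 FPKM, with replicates 2 and 4 lowest (−1.54, adjusted p = 0.21, and 0.0237 with the block). The alarmin S100a8, made by keratinocytes and neutrophils, was at 164, 216, 118 and 234 FPKM and then at 43.3, 81, 69.1 and 113 FPKM, without overlap (−1.28, SE 1.11, adjusted p = 0.724, and 0.0237 with the block). Its 10 week libraries spread from 7.42 to 838 FPKM and enter the SE. Of 20 antimicrobial peptides and alarmins 0 were called, 5 were lower and 1 higher with the block. Of 6 tested neutrophil genes, a list that shares S100a8, S100a9 and Lcn2 with the alarmins, those 3 were lower with the block. Type 2 cytokine genes, 18 tested, had 0 called and 3 higher with the block, the chemokines Ccl8 (1.39), Ccl17 (1.22) and Ccl24 (0.84). The hyperproliferation-associated keratins Krt6a and Krt16 were not called in either fit, with differences of −0.12 and −0.09. In the IL-6 and STAT3 list 3 of 30 passed with the block, Lrg1 (1.61), Bcl3 (1.12) and Tyk2 (0.68), all higher and all lowest in replicate 1 at each age.

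**Figure D5:**
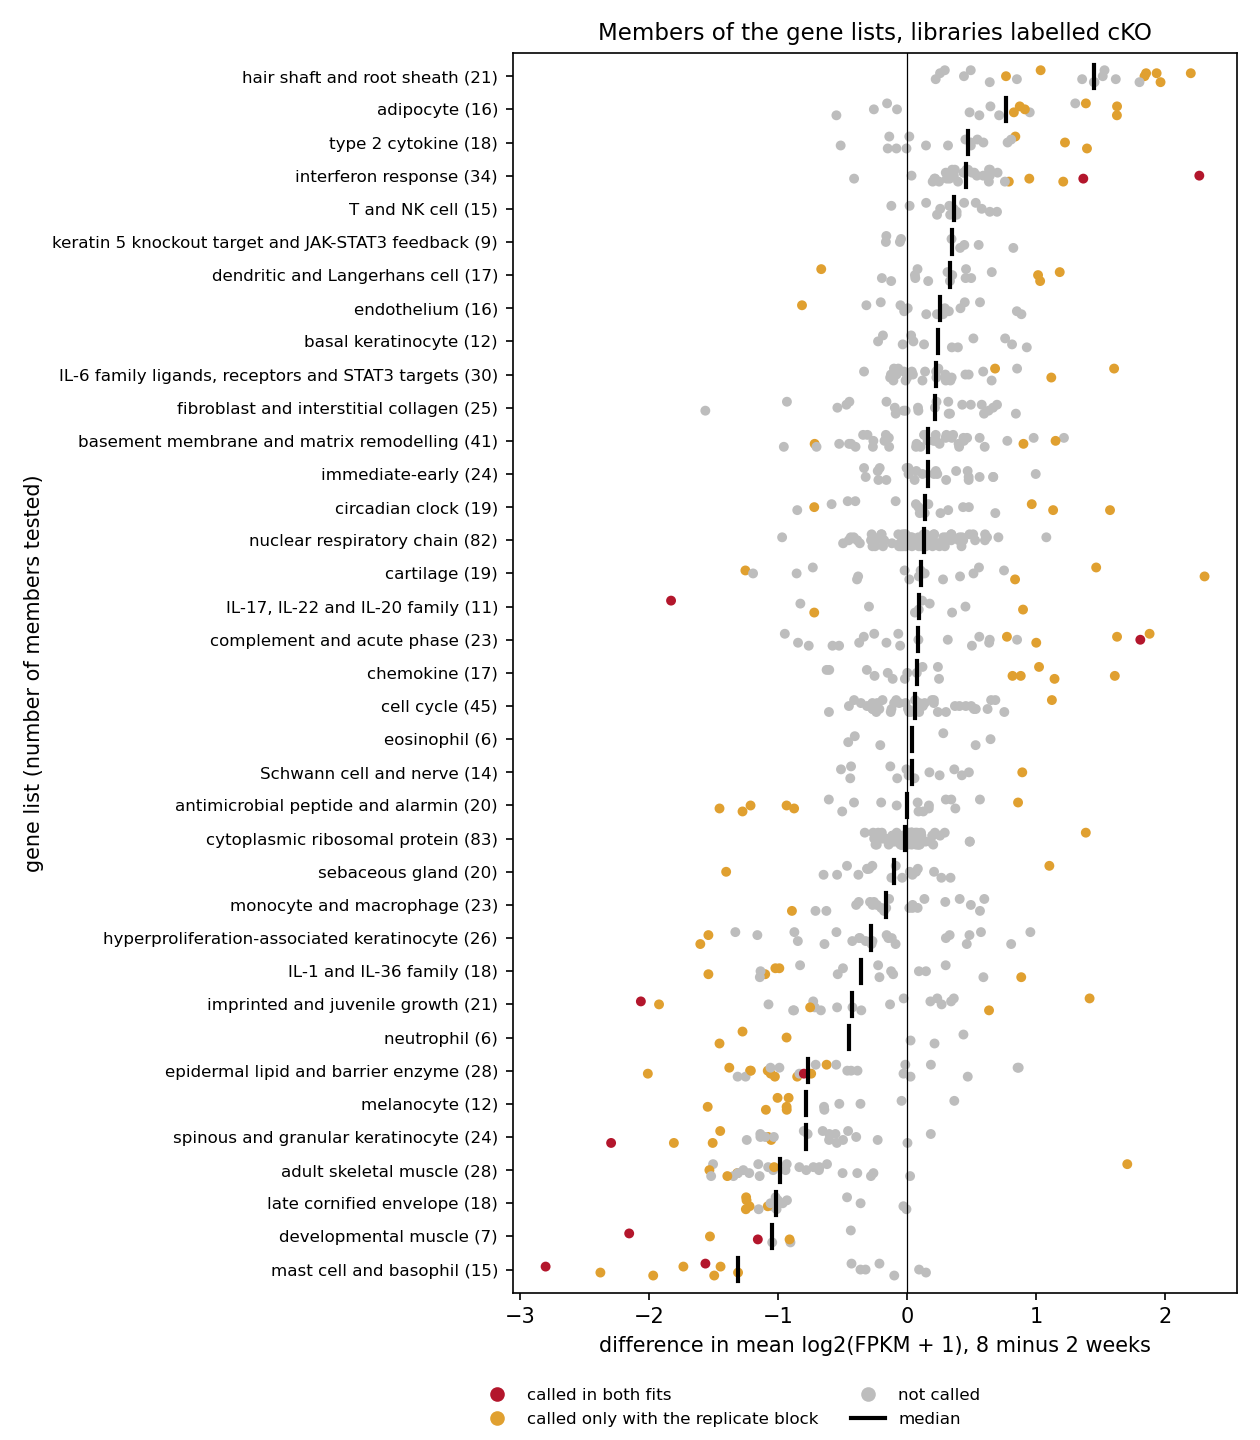
Difference in mean log2(FPKM + 1) between 8 and 2 weeks for the tested members of 37 gene lists with at least 6 tested members in the libraries labelled cKO, one list a line, ordered by the median (black bar). Red points are called in both fits and orange points only with the replicate block. Mast cell and developmental muscle genes have the lowest medians (−1.31 and −1.05) and hair genes the highest (1.45).

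The remaining lists had 0 called and at most 3 genes in a direction with the block, as the plot of list members shows. Of all genes tested 3.60% were higher and 1.99% lower with the block. The clock genes Nr1d1, Dbp and Hlf were higher with the block (1.57, 1.13 and 0.96), and the labels used here give no hour of sampling. Of 45 cell cycle genes only Ube2c passed with the block (1.12), and the median was 0.06. Of 83 ribosomal protein genes only Rplp2 passed with the block (1.39), and the median was −0.02. Lyve1, a receptor of lymphatic vessels, was lower with the block (−0.81), as was Cd163, a receptor of tissue macrophages (−0.89). Nothing passed in either fit among 82 respiratory chain, 24 immediate-early, 6 eosinophil, 4 erythroid and 2 tested olfactory and vomeronasal receptor genes.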

How the data were processed

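RNA of ear specimens was extracted with TRIzol and sequenced as single reads of 50 bases from a library kit that does not mark strand, per the labels' protocols. The authors deposited 1 table of FPKM values per library. The submitters' processing notes name TopHat2 2.1.0, Cufflinks and the mouse build mm9, and the version of Cufflinks and the annotation were not given in the sources used here. The tables hold no reads per gene, so count models were not applied.

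Groups were taken from the titles. FPKM values were taken as log2(FPKM + 1), and the genes reaching 1 FPKM in 4 or more of the 8 compared libraries were tested with limma 3.58.1 (R 4.3.3, trended empirical Bayes) on the 12 libraries labelled cKO, so that 10 week libraries add to the estimate of the spread. A fold on this scale understates the change of low genes. P-values were adjusted over all 12936 genes tested by the Benjamini-Hochberg method and called under 0.05. Differences are 8 minus 2 weeks, with replicate values in the order 1 to 4. Tables and figures were made with matplotlib 3.10.9 and pandas 2.3.3 under Python 3.11.15 with numpy 2.4.6.

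The labels number the replicates 1 to 4 at each age without saying that a number marks an animal, litter or batch. Same-numbered libraries deviated together (r = 0.792, 0.621, 0.426 and 0.15 over 12936 genes for replicates 1 to 4, with the own number the highest for 3 of 4), and a second fit on the same libraries took the number as a block.

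On simulated data of 12936 genes for the 8 against 2 week comparison, the fit without the block found 55% of 100 changes of 1 log2 unit and 89% of 100 changes of 2, with 7 false among 151 calls. With the block these were 45%, 84% and 2 of 131, on other simulated data. Those data gave same-numbered libraries a shared deviation, and the fit took the 8 compared libraries. The data for the fit without the block had no shared deviation, and that fit took 12 libraries. The fit without the block was thus not tried on libraries that deviate together, and the 2 sets of values do not compare the fits. In both sets the mean of a gene, before any change, was set to at least 2 on the log2(FPKM + 1) scale. Noise was drawn independently for each gene. Tested genes of lower level were therefore not tried at their own level.

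Named were Socs3, the 15 largest rises and falls among called genes without overlap between the ages, passing over unnamed gene models, up to 3 called members of each of 40 gene lists and, in a list with none, the member with the largest difference. Other genes were chosen after their values were seen. The comparison and the lists were chosen with earlier results of these data known. Tried were 23 alternatives: pseudocount, filter, scaling, libraries in the fit, array weights, the block, small RNA genes, Eif2s3y as a covariate and each library left out.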

Additional observations from a re-analysis of the deposited data

Results flagged for a closer look

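In the 122 groups of 4 libraries formed by the named genes and the 2 ages, 13 held a library whose gap to the nearest other on the log2(FPKM + 1) scale exceeded Dixon's critical share of the group's range, where about 5% of groups do so by chance. Replicate 1 was that library in 11 of the 13 and the lowest in each, and 9 of these were at 2 weeks. At 2 weeks its FPKM was 0.423 for Comp (3.16 to 4.18 in the others), 15.6 for Cyp2f2 (25.6 to 27.4), 0.272 for Fscn1 (5.91 to 7.95), 2.35 for Itgb4 (20.1 to 26.3), 0.409 for Lrg1 (5 to 6.77), 5.58 for Mmp14 (44.9 to 53.7), 8.14 for Ndufa4l2 (25.8 to 29.5), 2.81 for Plvap (21.2 to 24.1) and 128 for Rplp2 (600 to 715). At 8 weeks it was 13.6 for H2-Q9 (20.7 to 21.6) and 12.5 for Myl2 (20.2 to 22.2). The 2 other groups were those of Cd163, highest in replicate 2 at each age, at 19 FPKM against 8.71 to 9.5 at 2 weeks and at 8.09 FPKM against 4.62 to 4.96 at 8 weeks. Without replicate 1 of both ages, an alternative added after seeing the data, 88 genes were called, 47 higher and 41 lower, and 36 of the 50 were among them.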

How the results depend on the processing

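Against 50 called genes (14 higher, 36 lower), 43 (14 and 29) were called with a pseudocount of 0.1, 63 (17 and 46) with no filter, 35 (10 and 25) with a filter of 5 FPKM, 36 (12 and 24) with median-of-ratios scaling, 10 (4 and 6) with only the 8 compared libraries, 160 (43 and 117) with all 22 libraries, 4058 (2352 and 1706) with array weights, 50 (14 and 36) without small RNA genes and 61 (19 and 42) with Eif2s3y as a covariate. Scaling moved the median of all genes from 0.07 to 0.02. Leaving out 1 library gave 12 to 55 genes, 2 to 17 higher and 10 to 40 lower. Leaving out replicate 1 of both ages gave 88 (47 and 41). With the replicate block, fitted on only the 8 compared libraries, 723 (466 and 257) were called. The block ended no call of the 50. The named genes that it added are described as passing with the block, and it changed no other call on a named gene. Of the 30 named called genes 29 were called with a pseudocount of 0.1, 28 with no filter, 21 with scaling, 8 with only the 8 libraries and 28 with all 22, and none of the 30 reversed. Among genes not called, the sign reversed for Socs3 with array weights (0.31) and when 1 library was left out (−0.54 to 0.34), for Ear11 with array weights (−0.49), for Hba-a1 with array weights (0.03) and for Vmn2r29 without 2 week replicate 4 (−0.01), without 8 week replicate 1 (−0.04) and without replicate 1 of both ages (−0.01; range without 1 library −0.04 to 0.14). The cause of these differences between settings was not tested. Low FPKM values rest on few reads, and the number of reads behind a value is not known.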

Other observations

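The WT libraries of 2 and 8 weeks showed the direction of many called genes too, by values alone. Of the 36 genes lower at 8 weeks in the libraries labelled cKO, 26 (72.2%) had all WT libraries of 8 weeks below all those of 2 weeks, against 8692 of 12936 tested genes (67.2%), so the share is near that of all genes. Clec12b and Ptgds, which makes prostaglandin D2, had all WT libraries of 8 weeks above those of 2 weeks, a pattern of 8.8% of tested genes. Of the 14 higher genes 7 (50%) were higher in WT without overlap, and Sfrp2 was lower. Among the 14 higher genes, Ifi27l2a and Sectm1a had every 10 week library below every 8 week library while still above those of 2 weeks, at 93.6 to 104 FPKM and 12.1 to 17.7 FPKM. The WT libraries of 8 weeks stand apart in the share of receptor genes above 0, and no difference between the labelled genotypes was tested here.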
